A study of Homo sapiens with 8 samples.

Results

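The genes described here are 35 enzymes, transporters and regulators of glycolysis, pyruvate use and the pentose phosphate pathway. They were chosen by gene symbol from a list drawn up for their function, with earlier results of these data known. Counts of these genes beside shares over all genes are therefore descriptions only. All 35 were found among the 18406 gene symbols of the deposited expression table. They were followed in 92.1, an established cell line from a uveal melanoma, a tumour of the pigment cells of the eye. RNA was sequenced from 4 groups of 2 libraries each, and all libraries came from this single line. The control group received vehicle, which the treatment notes give as DMSO. The second group received trametinib, an inhibitor of the kinases MEK1 and MEK2, at 10 nM for 24 h. The third received panobinostat, an inhibitor of histone deacetylases, at 10 nM for 24 h, although its treatment label also carries the abbreviation for a MEK inhibitor, and the drug name was followed. The fourth received both drugs for 24 h, and its label gives 10 nM once, so that each drug was at that dose is an assumption. Whether the libraries stem from separate cultures is not stated in the sources used here, and p-values therefore reflect only the spread among these libraries, possibly technical. The sample records of vehicle and trametinib are numbered in a separate run from those of panobinostat and the combination. What this split reflects is not stated, and a difference in handling along it could not be told apart from panobinostat. The series title asks what inhibition of histone deacetylases adds to inhibition of MEK.

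Glycolysis turns glucose into pyruvate in the cytosol, with a net gain of ATP. Pyruvate is then reduced to lactate by lactate dehydrogenase and exported, or enters the mitochondria, where the pyruvate dehydrogenase complex makes acetyl-CoA from it and the PDK kinases switch that complex off. The pentose phosphate pathway draws glucose 6-phosphate away to make NADPH and ribose, and tumour cells are known for running glycolysis to lactate even with oxygen present.

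Values are the authors' normalised signal (normalised read counts), and they are not corrected for gene length. Whole reads could be recovered for 5 libraries, which held between 6897784 and 16861001 reads. For both trametinib libraries and panobinostat replicate 2 the read number is not given here, and the values of each library summed to between 10140242 and 10577817. Trametinib replicate 2 stood apart at low values, with 5362 genes at 0 against 3743 in replicate 1 and 2222 to 2890 in the other 6 libraries. Replicates correlated across the tested genes at r = 0.897 with trametinib and between 0.974 and 0.991 in the other groups. Of 9 melanocyte lineage markers, 8 had a mean of at least 10, and S100B stayed between 0 and 12.2. The endothelial marker CDH5 was at 0 in all libraries and the leukocyte marker PTPRC did not exceed 11.7. Of 6 fibroblast markers, 2 had a mean of at least 10 (COL1A1 and LUM), and the 6 summed to 391 and 410.1 for vehicle, 761 and 1019.7 under trametinib, 974 and 1000.3 under panobinostat, and 1239 and 1295 under both drugs. COL1A1 was at 133 and 149 for vehicle, 511 and 821 under trametinib, 509.7 and 593 under panobinostat, and 608 and 774 under both. CD68, a macrophage marker also known from other cells, was at 650.0 and 610.4 for vehicle, 841 and 762 under trametinib, 1417 and 1497 under panobinostat, and 935 and 858 under both. COL1A1 and CD68 were higher in every treated library than in vehicle, and their part in the results was not tested.

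Each gene was tested with limma on log2(value + 1), a scale that understates changes of low genes, and passed at an adjusted p under 0.05. Of the 35 genes, 34 had a mean of at least 10 over the 8 libraries and were tested, among 13320 genes in all. The remaining gene, SLC16A3, which encodes the lactate exporter MCT4, was at 0 in 5 libraries and at 3.96, 4.08 and 1.008 in vehicle replicate 2 and the panobinostat libraries. With 2 libraries a group, the smallest two-sided p of an exact permutation test is 0.333, and the tests therefore rest on the spread pooled over the groups. Errors after ± are standard errors of the log2 change.

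The share of the library total held by the 35 genes differed between the groups. It was 1.55% and 1.503% for vehicle, 0.751% and 0.822% under trametinib, 1.24% and 1.26% under panobinostat, and 0.982% in each library that received both drugs. The 2 libraries of a group lay close together, and the 4 groups did not overlap. GAPDH alone held 0.752% and 0.708% in vehicle and 0.313% and 0.361% with trametinib. Without GAPDH the other 34 genes held 0.799% and 0.795% for vehicle, 0.438% and 0.461% under trametinib, 0.661% and 0.658% under panobinostat and 0.483% in each combination library. Without this gene, too, vehicle was highest, panobinostat next, then the combination, and trametinib lowest. In bulk RNA, fewer cells with a transcript and less of it per cell cannot be told apart. MALAT1, a nuclear noncoding RNA that held the largest share of every library, took between 4.19% and 12.2% and was highest in the combination.

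**Figure D1:**
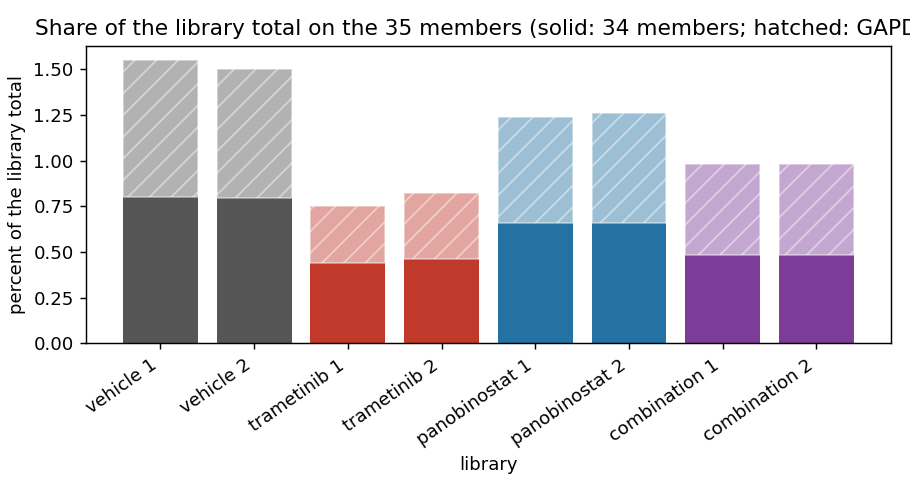
Percent of each library's total held by the 35 genes (y axis) in the 8 libraries (x axis), with GAPDH hatched and the other 34 genes solid. The share is highest in vehicle (1.55% and 1.503%) and lowest with trametinib (0.751% and 0.822%).

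Trametinib lowered 17 of the 34 tested genes and raised 5, while 12 did not pass. Over all tested genes, 27.4% were called lower and 23.7% higher in the same comparison. The median log2 change was -0.65 for these genes and -0.07 over all genes. A change of at least 2-fold was seen for 12 of the genes that fell and 2 of those that rose. Over all 13320 tested genes, 2022 falls and 1411 rises reached 2-fold. Every call but that of ALDOC also passed with any 1 of the 8 libraries left out.

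Panobinostat lowered 11 of the 34 genes and raised 5, and over all genes 15.6% were called lower and 15.0% higher. The median log2 change of these genes was -0.11, and 0 of the falls and 1 of the rises reached 2-fold. Over all 13320 tested genes, 541 falls and 790 rises did. Of these 16 calls, 6 passed with any 1 library left out (ENO1, GPI, LDHA and LDHB among the falls, PDK2 and PDK3 among the rises). The other 10 lost the call in at least 2 such fits, with adjusted p in limma up to 0.217 for HK2.

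With both drugs, 17 of the 34 genes fell and 4 rose against vehicle, beside 25.5% lower and 24.5% higher over all genes. The median log2 change was -0.41, against 0.03 over all genes, and 7 falls and 1 rise reached 2-fold. Over all 13320 tested genes, 1583 falls and 1702 rises did. The 9 genes ALDOA, ENO1, GAPDH, GPI, HK2, LDHA, LDHB, PFKP and TPI1 fell in each of the 3 comparisons with vehicle, and PDK2 and PDK3 rose in each. These comparisons share the vehicle libraries. How many of all tested genes fell or rose in each was not counted, so nothing is read from these numbers of genes. Of the 21 calls with both drugs, 16 passed with any 1 library left out, and those of SLC2A1, PFKM, PFKL, ENO3 and ALDOC did not.

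**Figure D2:**
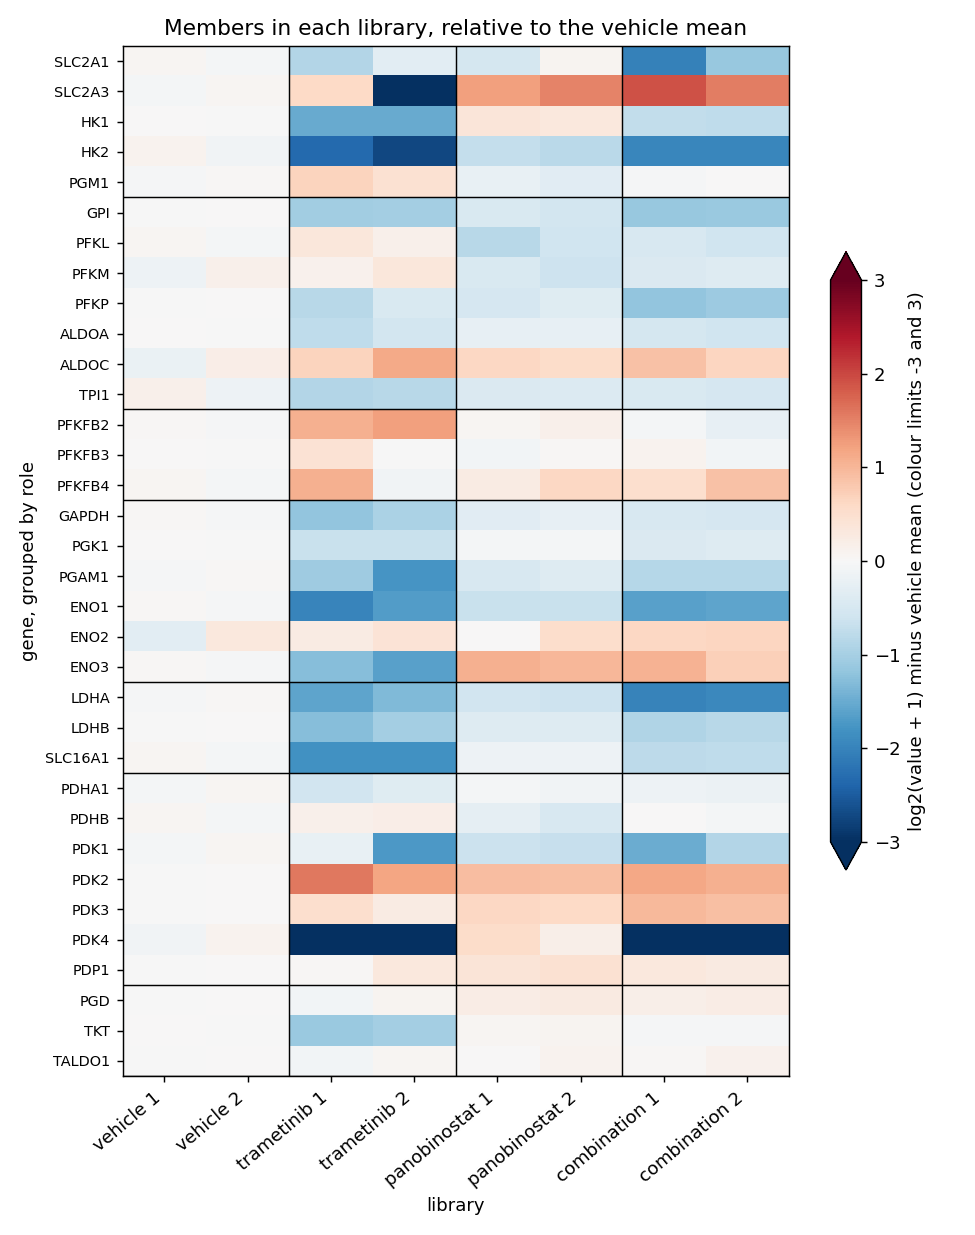
Colour gives log2(value + 1) minus the vehicle mean for the 34 tested genes (y axis, grouped by role) in the 8 libraries (x axis), with colours limited to -3 and 3. Most genes of the glycolytic chain are blue in both trametinib columns and paler with panobinostat, PDK2 is red in all treated columns, and SLC2A3 differs between the trametinib replicates (155 and 11.1).

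**Figure D3:**
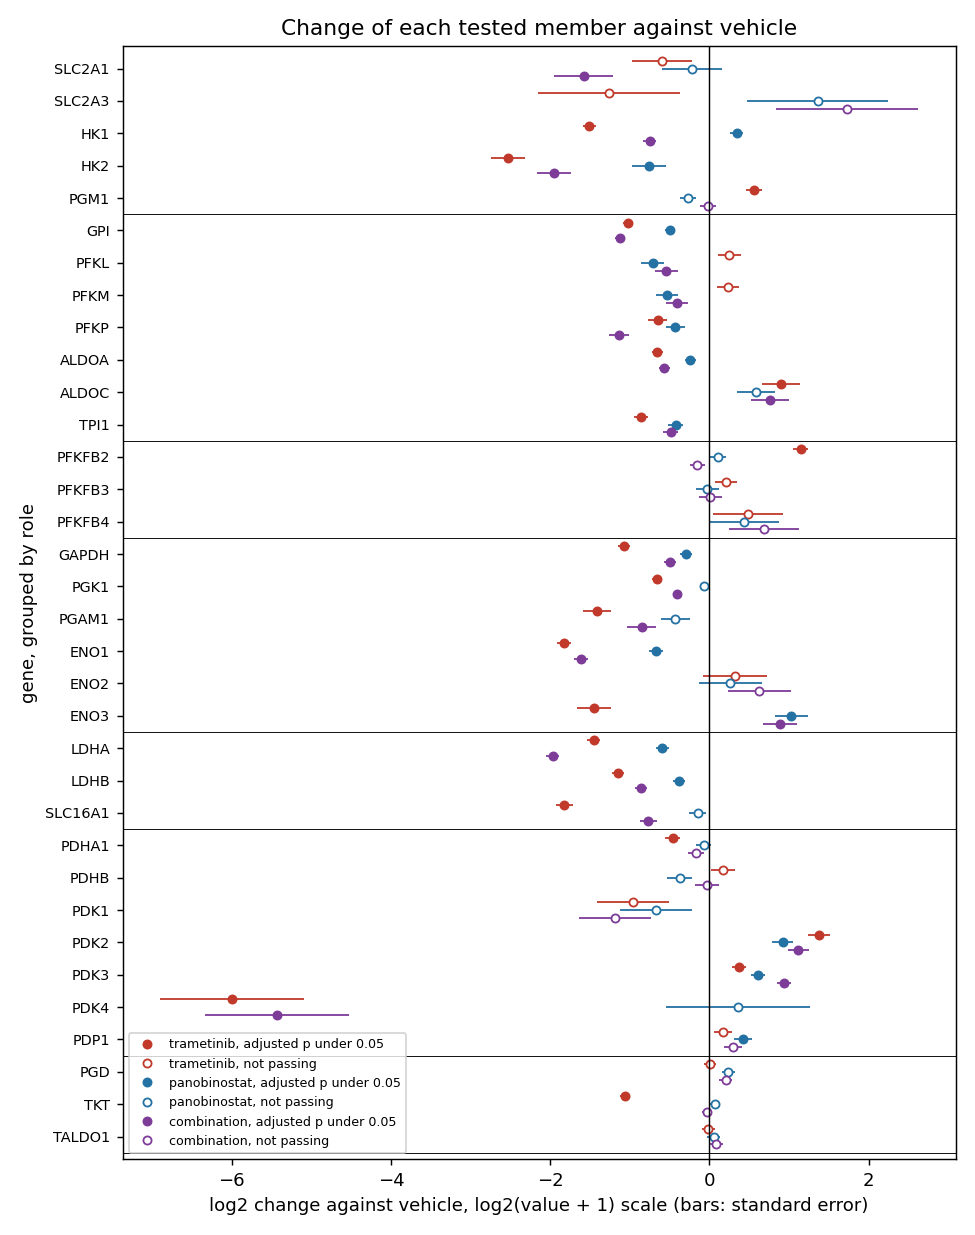
Log2 change against vehicle with its standard error (x axis) for each of the 34 tested genes (y axis), with filled points for an adjusted p under 0.05. Trametinib lowered 17 genes, panobinostat 11 and both drugs 17, and PDK4 lies far to the left because its values with trametinib are at or near 0.

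Promoter sequences were read from RefSeq (build GRCh38.p14), 250 bases before to 50 bases after 1 annotated start of each gene. Where a symbol had several windows the first listed was kept, so a window, those printed below included, may lie at an alternative start. Which start these cells use was not tested. Of the 35 genes, 31 had an entry in a table of 27305 promoters. Searches covered both strands. The E-box CACGTG, a sequence bound by factors such as MYC, was found in 4 of the 31 promoters (12.9%) and in 7.43% of all promoters. The core of hypoxia response elements was searched as ACGTG and, in a variant that differs at its first base, as GCGTG. Either was found in 19 of 31 (61.3%) and in 48.4% of all promoters. An E-box holds ACGTG on each strand, so the searches overlap. The GC box GGGCGG was found in 25 of 31 (80.6%) against 44.6% of all promoters. Among the 16 genes with an entry that fell with trametinib, 2 held the E-box and 10 the core. The 4 windows below were chosen after values and matches had been seen, to set LDHA beside LDHB, its paralog with another response to the drugs, and GAPDH, which fell, beside ALDOC, which rose with trametinib. Capitals mark matches to the E-box or the core on either strand, and each line runs 5′ to 3′ on the strand of the gene. The windows are LDHA chr11:18394313-18394612 (plus strand), LDHB chr12:21657793-21658092 (minus), GAPDH chr12:6535014-6535313 (plus) and ALDOC chr17:28576846-28577145 (minus).
LDHA: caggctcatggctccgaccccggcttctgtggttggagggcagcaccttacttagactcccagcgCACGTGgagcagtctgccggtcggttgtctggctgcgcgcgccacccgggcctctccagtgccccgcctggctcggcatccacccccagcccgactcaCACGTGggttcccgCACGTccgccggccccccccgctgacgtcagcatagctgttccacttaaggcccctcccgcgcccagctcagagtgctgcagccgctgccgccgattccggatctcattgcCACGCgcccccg
LDHB: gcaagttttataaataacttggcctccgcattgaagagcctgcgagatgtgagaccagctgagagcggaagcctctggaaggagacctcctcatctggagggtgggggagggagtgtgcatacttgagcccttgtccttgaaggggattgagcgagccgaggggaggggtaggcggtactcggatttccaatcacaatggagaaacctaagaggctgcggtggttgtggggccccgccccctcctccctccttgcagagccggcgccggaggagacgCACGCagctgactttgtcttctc
GAPDH: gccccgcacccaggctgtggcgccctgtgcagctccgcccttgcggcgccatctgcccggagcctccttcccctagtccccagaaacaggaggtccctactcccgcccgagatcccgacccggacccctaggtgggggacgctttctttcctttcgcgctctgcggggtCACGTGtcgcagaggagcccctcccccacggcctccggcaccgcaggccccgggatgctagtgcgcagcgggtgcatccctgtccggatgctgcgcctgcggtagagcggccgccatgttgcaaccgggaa
ALDOC: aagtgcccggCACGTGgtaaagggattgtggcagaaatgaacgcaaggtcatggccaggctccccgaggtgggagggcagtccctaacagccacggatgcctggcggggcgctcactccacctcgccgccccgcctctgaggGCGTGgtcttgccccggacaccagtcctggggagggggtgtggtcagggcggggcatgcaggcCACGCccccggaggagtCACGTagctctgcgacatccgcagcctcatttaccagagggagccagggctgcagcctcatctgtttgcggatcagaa
The LDHA window held 2 E-boxes and 6 core matches, those inside the E-boxes included, and the LDHB window held 0 and 1. The GAPDH and ALDOC windows each held 1 E-box, with 2 and 5 core matches. A match is a description of the letters, and binding was not measured.

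Glucose enters through the transporters SLC2A1 and SLC2A3, which encode GLUT1 and GLUT3, and is trapped by hexokinases 1 and 2. HK2, the inducible hexokinase of many tumours, was at 471 and 405 in the vehicle libraries, 86.3 and 65.3 under trametinib, 267 and 249 under panobinostat, and 111 and 113 under both drugs. No treated library reached the vehicle range, and the trametinib libraries were lowest. HK2 changed by -2.52 ± 0.21 with trametinib (limma adjusted p = 1.05e-05), by -0.76 ± 0.21 with panobinostat (0.0246) and by -1.96 ± 0.21 with both (5.82e-05). The call with panobinostat was lost without either library of the vehicle or panobinostat group, where the change lay between -0.87 and -0.65.

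HK1, the more broadly expressed hexokinase, was at 1397 and 1370 in the vehicle libraries, 486 and 483 under trametinib, 1784 and 1726 under panobinostat, and 828 and 815 under both drugs. Among the 34 tested genes, HK1 and ENO3 were called lower with trametinib and higher with panobinostat. The changes were -1.51 ± 0.08 (limma adjusted p = 5.53e-07) with trametinib and 0.34 ± 0.08 (0.0106) with panobinostat, and the rise was lost without any 1 of the 4 vehicle and panobinostat libraries (0.32 to 0.37). The log2 ratio of HK2 to HK1 was -1.57 and -1.75 in vehicle and between -2.89 and -2.48 in all 6 treated libraries.

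SLC2A1 was at 169 and 154 in the vehicle libraries, 87.3 and 130 under trametinib, 112 and 171 under panobinostat, and 38.6 and 73.0 under both drugs. The libraries of each treated group were far apart, and only those with both drugs lay wholly below the rest. The change with both drugs was -1.58 ± 0.38 (limma adjusted p = 0.00631), and it was -1.13 without combination replicate 1 and -1.51 without vehicle replicate 1, where it did not pass. With trametinib alone the change was -0.59 ± 0.38 and did not pass.

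SLC2A3 was at 98.7 and 108 in the vehicle libraries, 155 and 11.1 under trametinib, 243 and 291 under panobinostat, and 393 and 300 under both drugs. The trametinib replicates lay on opposite sides of vehicle, and the libraries with panobinostat were all above it. None of the 3 changes against vehicle passed in limma (-1.26 ± 0.89, 1.36 ± 0.89 and 1.73 ± 0.89). Their standard error is pooled over all groups, and the trametinib libraries were by far the furthest apart. On the whole reads of the vehicle and combination libraries alone, the change of 1.73 passed in edgeR's quasi-likelihood test (adjusted p = 1.15e-07) and in DESeq2 (5.82e-13). The trametinib change passed in opposite directions when either of its libraries was left out, at 0.59 without replicate 2 (limma adjusted p = 0.0243) and at -3.11 without replicate 1 (3.16e-09).

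PGM1, which links glucose 6-phosphate to glycogen, rose from 794 and 825 in the vehicle libraries to 1279 and 1112 under trametinib, a change of 0.56 ± 0.10 (limma adjusted p = 0.0014). It was at 787 and 814 with both drugs, within the vehicle range at 1 library, and the changes with panobinostat (-0.27) and with both (-0.02) did not pass.

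Of 7 genes of upper glycolysis, which carries glucose 6-phosphate to triose phosphates, 4 fell and 1 rose with trametinib. With panobinostat 6 fell and 0 rose, and with both drugs 6 fell and 1 rose. Over all tested genes, 27.4% fell and 23.7% rose with trametinib, 15.6% and 15.0% with panobinostat, and 25.5% and 24.5% with both. The counts for the other steps below are to be read beside the same shares. GPI, the isomerase that makes fructose 6-phosphate, was at 4304 and 4401 in the vehicle libraries, 2125 and 2144 under trametinib, 3189 and 2993 under panobinostat, and 1990.2 and 1997 under both drugs. Its replicates were close, and both groups with trametinib lay well below the others. The changes were -1.03, -0.49 and -1.13, each ± 0.06 (limma adjusted p = 1.13e-06, 0.000402 and 7.92e-07).

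Phosphofructokinase, the committed step of glycolysis, is built from the isoforms PFKL (liver), PFKM (muscle) and PFKP (platelet). PFKP was at 1773 and 1802 in the vehicle libraries, 999 and 1296 under trametinib, 1265 and 1395 under panobinostat, and 789 and 837 under both drugs. It was lowest with both drugs, and the single-drug groups overlapped. The change was -0.65 ± 0.12 with trametinib (limma adjusted p = 0.0015), -0.43 ± 0.12 with panobinostat (0.0237) and -1.14 ± 0.12 with both (4.6e-05). The panobinostat call was lost without any 1 of the 4 vehicle and panobinostat libraries (-0.50 to -0.36).

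PFKL was at 460 and 426 in the vehicle libraries, 561 and 492 under trametinib, 249.8 and 290.4 under panobinostat, and 316 and 292 under both drugs. PFKM was at 510.4 and 629 in the vehicle libraries, 624 and 712 under trametinib, 413 and 371 under panobinostat, and 418 and 437 under both drugs. Both isoforms lay below vehicle wherever panobinostat was given, and not with trametinib alone. Their trametinib changes (0.25 ± 0.14 and 0.23 ± 0.14) did not pass. PFKL fell by 0.72 and PFKM by 0.53 on the log2 scale with panobinostat (limma adjusted p = 0.00529 and 0.018), calls lost without vehicle replicate 1 or panobinostat replicate 1 for PFKL (-0.66 and -0.61), and without vehicle replicate 2 or either panobinostat library for PFKM (-0.38, -0.61 and -0.46). With both drugs they fell by 0.54 and 0.41 (0.0114 and 0.0354). The call of PFKL was lost there without vehicle replicate 1 or combination replicate 2 (both -0.49), and that of PFKM without vehicle replicate 2 (-0.26), either panobinostat library or either combination library. Trametinib and panobinostat differed directly, with PFKL higher by 0.96 ± 0.14 and PFKM by 0.77 ± 0.14 with trametinib (0.000638 and 0.00196). The log2 ratio of PFKP to PFKM was 1.80 and 1.52 in vehicle, 1.61 and 1.91 with panobinostat, and between 0.68 and 0.94 in the 4 libraries with trametinib.

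The bifunctional enzymes PFKFB2, PFKFB3 and PFKFB4 set the level of fructose 2,6-bisphosphate, which activates phosphofructokinase. PFKFB2 was at 1260.3 and 1203 in the vehicle libraries, 2559 and 2895 under trametinib, 1276 and 1378 under panobinostat, and 1184 and 1038 under both drugs. Only the trametinib group stood apart, at about 221% of the vehicle mean. PFKFB2 rose by 1.14 ± 0.10 with trametinib (limma adjusted p = 9.77e-06), and was lower by -1.30 ± 0.10 with both drugs than with trametinib alone (1.65e-05). PFKFB3 (888 to 1279.7 over the 8 libraries) and PFKFB4 (43.2 to 97.3) passed in no comparison.

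ALDOA, the major aldolase of most tissues, was at 15182 and 14762 in the vehicle libraries, 8873 and 10194 under trametinib, 12674 and 12693 under panobinostat, and 10413 and 9818 under both drugs. The vehicle libraries were highest, and the trametinib and combination groups overlapped. It changed by -0.65, -0.24 and -0.57, each ± 0.07 (limma adjusted p = 3.68e-05, 0.0238 and 9.71e-05). The panobinostat call was lost without any 1 of the vehicle or panobinostat libraries (-0.26 to -0.22).

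ALDOC, the aldolase of brain, was at 107 and 140.1 in the vehicle libraries, 195 and 268 under trametinib, 190 and 178 under panobinostat, and 227 and 190.2 under both drugs. All treated libraries were above vehicle. ALDOC rose by 0.90 ± 0.24 with trametinib and by 0.76 ± 0.24 with both (limma adjusted p = 0.0112 and 0.0239), and the change with panobinostat (0.59) did not pass. Without vehicle replicate 1 the changes were 0.70 and 0.56 and did not pass. With both drugs the call was also lost without combination replicate 1 (0.63) or replicate 2 (0.89).

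TPI1, which interconverts the triose phosphates, was at 3160 and 2583 in the vehicle libraries, 1543 and 1603 under trametinib, 2111 and 2149 under panobinostat, and 2074 and 2002 under both drugs. The vehicle libraries were far apart but above all others, and the combination lay between trametinib and vehicle. The changes were -0.86, -0.42 and -0.49, each ± 0.09 (limma adjusted p = 5.17e-05, 0.0078 and 0.00181). The panobinostat change was -0.28 without vehicle replicate 1, -0.41 without panobinostat replicate 1 and -0.44 without replicate 2, and did not pass in any of these fits.

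Lower glycolysis yields ATP and NADH, and 5 of its 6 genes fell with trametinib while ENO2 did not pass. With panobinostat 2 fell and 1 rose, and with both drugs 4 fell and 1 rose. GAPDH, the dehydrogenase that makes the NADH of glycolysis and a common reference gene, was at 76299 and 71829 in the vehicle libraries, 32468 and 38224 under trametinib, 58833 and 61974 under panobinostat, and 52707 and 52436 under both drugs. The 4 groups did not overlap, and the values with both drugs lay between trametinib and panobinostat. GAPDH changed by -1.07 ± 0.07 with trametinib (limma adjusted p = 2.39e-06) and by -0.49 ± 0.07 with both (0.000369). Its change with panobinostat, -0.29 ± 0.07 (0.0134), was lost without vehicle replicate 1 (-0.25) or either panobinostat library (-0.26 and -0.33). GENCODE 29 names 62 pseudogenes after GAPDH and 13 after PGAM1, and reads that match several copies could have been split or lost in the counting.

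PGK1, the first ATP-yielding step, was at 3843 and 3814 in the vehicle libraries, 2428 and 2407 under trametinib, 3668 and 3646 under panobinostat, and 2838 and 2935 under both drugs. Replicates were close, and the groups did not overlap. The changes were -0.66 ± 0.06 with trametinib (limma adjusted p = 1.04e-05) and -0.41 ± 0.06 with both (0.000254), and the change with panobinostat (-0.07) did not pass.

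PGAM1, the mutase that follows, was at 1794 and 1903 in the vehicle libraries, 879 and 545 under trametinib, 1332 and 1417 under panobinostat, and 1028 and 1016 under both drugs. The trametinib replicates differed, with replicate 2 lower, and both were below every other library. PGAM1 changed by -1.42 ± 0.18 with trametinib (limma adjusted p = 0.000144) and by -0.85 ± 0.18 with both (0.00311), while -0.43 with panobinostat did not pass.

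ENO1, the ubiquitous enolase, was at 8212 and 7898 in the vehicle libraries, 2048 and 2513 under trametinib, 5037 and 5085 under panobinostat, and 2601 and 2676 under both drugs. The trametinib and combination libraries stood at means of 28.3% and 32.8% of the vehicle mean. ENO1 changed by -1.83, -0.67 and -1.61, each ± 0.09 (limma adjusted p = 2.91e-07, 0.000534 and 7.92e-07). ENO2, the neuronal enolase, stayed between 35.5 and 70.0 and passed in no comparison.

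ENO3, the muscle enolase, was at 178 and 169 in the vehicle libraries, 71.2 and 55.3 under trametinib, 365 and 347 under panobinostat, and 362 and 288 under both drugs. It was below vehicle with trametinib alone and above it in all 4 libraries with panobinostat. The changes were -1.46 ± 0.21 with trametinib (limma adjusted p = 0.000363), 1.03 ± 0.21 with panobinostat (0.00587) and 0.89 ± 0.21 with both (0.00646). The rise with panobinostat was 0.99 without vehicle replicate 2 or panobinostat replicate 1, and that with both drugs was 0.85 and 0.72 without vehicle replicate 2 or combination replicate 1, and these did not pass. With both drugs ENO3 was higher than with trametinib by 2.34 ± 0.21 (5.51e-05).

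Lactate dehydrogenase is a tetramer of A and B subunits, with the A form associated with making lactate and the B form with using it. LDHA was at 12171 and 12582 in the vehicle libraries, 4129 and 4950.0 under trametinib, 8370.5 and 8070 under panobinostat, and 3078 and 3249 under both drugs. The groups did not overlap, and the combination was lowest. LDHA changed by -1.45, -0.59 and -1.97, each ± 0.08 (limma adjusted p = 7.33e-07, 0.000708 and 1.86e-07), and was lower with both drugs than with trametinib alone by -0.52 ± 0.08 (0.00123).

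LDHB was at 11067 and 11242 in the vehicle libraries, 4627 and 5480.4 under trametinib, 8585 and 8496 under panobinostat, and 6001 and 6310.3 under both drugs. Here the trametinib group was lowest. LDHB changed by -1.15, -0.39 and -0.86, each ± 0.08 (limma adjusted p = 2.05e-06, 0.00443 and 1.45e-05). Against trametinib alone it was higher with both drugs by 0.29 ± 0.08 (0.0164), which became 0.33 and 0.25 and did not pass without combination replicate 1 or 2, and was 0.17 (0.0246) without trametinib replicate 1.

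The log2 ratio of LDHA to LDHB was 0.14 and 0.16 for vehicle, -0.16 and -0.15 under trametinib, -0.04 and -0.07 under panobinostat, and -0.96 in each library with both drugs. The combination stood apart from the other 3 groups. Per kilobase of annotated exon, LDHB was at 7033 in vehicle and LDHA at 4168. The lengths used, 1586 and 2969 bases, join the exons of all basic protein-coding transcripts of a gene. They can exceed the length of the transcript in use, so levels of the pair compare only roughly. With both drugs the levels per kilobase were 3881 and 1066.

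**Figure D4:**
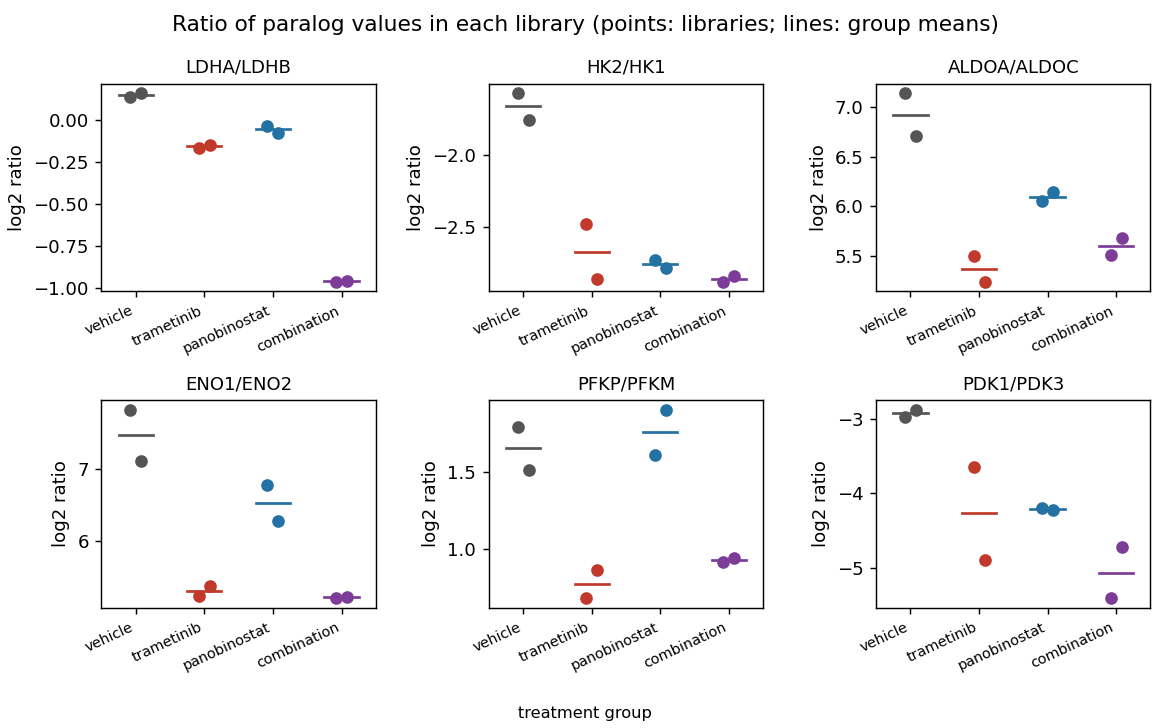
Log2 ratio of the values of 6 paralog pairs (y axes) by treatment group (x axes), with a point per library and a line at the group mean. LDHA/LDHB is near 0 in 3 groups and at -0.96 with both drugs, HK2/HK1 is lower in all treated libraries, and PFKP/PFKM is lower in the 4 libraries with trametinib.

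SLC16A1, which encodes the lactate transporter MCT1, was at 858 and 781 in the vehicle libraries, 231 in each trametinib library, 737 and 738 under panobinostat, and 476 and 485 under both drugs. Replicates were close in the treated groups, and the combination lay between trametinib and panobinostat. It changed by -1.82 ± 0.11 with trametinib (limma adjusted p = 1.24e-06) and by -0.77 ± 0.11 with both (0.000331), and -0.15 with panobinostat did not pass.

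Of 7 genes of pyruvate dehydrogenase and its regulators, 2 rose and 2 fell with trametinib, 3 rose and 0 fell with panobinostat, and 2 rose and 1 fell with both. PDK2, a kinase that inhibits the complex, was at 359 and 364 in the vehicle libraries, 1081 and 816 under trametinib, 689 and 679.6 under panobinostat, and 812 and 758 under both drugs. All treated libraries were above vehicle. PDK2 rose by 1.38, 0.92 and 1.12, each ± 0.14 (limma adjusted p = 2.78e-05, 0.00103 and 0.000112).

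PDK3, a further kinase of the family, was at 1226 and 1237 in the vehicle libraries, 1742 and 1462 under trametinib, 1890.0 and 1867 under panobinostat, and 2414 and 2305 under both drugs. It was highest with both drugs. The rises were 0.37, 0.61 and 0.94, each ± 0.09 (limma adjusted p = 0.00641, 0.000999 and 2.36e-05). Without trametinib replicate 1 the trametinib rise was 0.25 (0.0116).

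PDK4, the kinase known to rise with fasting and fatty acid use, was at 58.4 and 67.3 in vehicle, listed at 0 in both trametinib libraries, at 92.8 and 70.6 with panobinostat, and at 1.17 and 0 with both. It was detected wherever trametinib was absent and at or near 0 wherever it was given. The calls against vehicle passed in limma with trametinib (adjusted p = 0.000446) and with both drugs (0.000823), and no fold is given against values listed at 0. In whole reads, vehicle held 182 and the combination 1, a ratio of 94.1 after scaling with an exact 95% interval of 16.7 to 3740 that covers counting error only. Of 1104 genes with a vehicle mean between 40 and 80, 13 were at 0 in trametinib replicate 1, 122 in replicate 2, and 9 in both (0.815%).

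PDK1, a kinase induced in hypoxia, was at 154 and 167 in the vehicle libraries, 138 and 48.2 under trametinib, 102 and 98.8 under panobinostat, and 56.2 and 86.7 under both drugs. All treated libraries were below vehicle, and no change passed in limma. The standard error is pooled over all groups, and the trametinib libraries were the furthest apart. The change with both drugs, -1.19 ± 0.46, missed the threshold (adjusted p = 0.0542), and passed with a pseudocount of 10 (0.0374), a minimum mean of 50 (0.0451), values scaled to equal library totals (0.0325), edgeR (0.000134) and DESeq2 (0.000373), the last pair on the vehicle and combination reads.

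PDHA1, a catalytic subunit of the complex, fell by 0.46 on the log2 scale with trametinib (limma adjusted p = 0.00304), from 1083 and 1166 to 760.2 and 876. PDHB, its partner, passed against vehicle with no treatment. PDP1, the phosphatase that reactivates the complex, measured 707 and 728 in the vehicle libraries and 936 and 982 under panobinostat, a rise of 0.42 ± 0.11 (0.0182) that was lost without any 1 of these 4 libraries (0.38 to 0.45).

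Of the 3 pentose phosphate genes, TKT fell with trametinib and the other two passed against vehicle with no treatment. TKT, the transketolase of the non-oxidative branch, was at 5659 and 5581 in the vehicle libraries, 2602 and 2766 under trametinib, 5857 and 5906 under panobinostat, and 5444 and 5516 under both drugs. The trametinib group alone lay apart, below the level of every other library. TKT changed by -1.07 ± 0.05 with trametinib (limma adjusted p = 4.38e-07), and was higher by 1.03 ± 0.05 with both drugs than with trametinib alone (2.23e-06). Against vehicle the change with both drugs was -0.04 ± 0.05 (0.61). PGD of the oxidative branch lay between 1227 and 1545 and TALDO1, the transaldolase, between 1381 and 1600.4 over all libraries.

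Adding panobinostat to trametinib raised 12 of the 34 genes and lowered 6, beside 17.6% higher and 15.2% lower over all genes. The genes higher with both drugs were ENO3, GAPDH, HK1, LDHB, PDHA1, PDK3, PGAM1, PGK1, SLC16A1, SLC2A3, TKT and TPI1, and those lower were LDHA, PFKFB2, PFKL, PFKM, PFKP and PGM1. This comparison, that of trametinib with vehicle and the interaction share the trametinib libraries, so nothing is read from the overlap of their calls. Of the 18 calls, 10 passed with any 1 library left out (ENO3, GAPDH, HK1, PDK3, SLC16A1 and TKT higher, LDHA, PFKFB2, PFKL and PGM1 lower). PGAM1 (0.56) lost its call in 7 of the 8 such fits, with values from 0.22 to 0.91, as did PDHA1 (0.29, range 0.19 to 0.40). SLC2A3 (2.99) lost it in 4, with values from 1.14 to 4.84, PFKM (-0.64) without combination replicate 1 (-0.61), PGK1 (0.26) without combination replicate 2 (0.23), and TPI1 (0.37) and PFKP (-0.49) without either combination library. PFKP was -0.30 without trametinib replicate 2.

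Adding trametinib to panobinostat lowered 12 genes and raised 1, PDK3, beside 13.1% lower and 10.9% higher over all genes. The falls held HK1 (-1.09 ± 0.08, limma adjusted p = 1.59e-05), HK2, GPI, PFKP, ALDOA, PGK1, ENO1, LDHA, LDHB, SLC16A1, SLC2A1 and PDK4. PDK3 (0.33) lost its call in 6 of the 8 fits with 1 library left out, SLC2A1 (-1.37) in 5 with values from -1.82 to -0.92, and ALDOA (-0.33) in 3. Compared directly, trametinib was below panobinostat for 18 genes and above it for 6, beside 23.4% lower and 18.7% higher over all genes. Of these 24 calls, 19 passed with any 1 library left out. PGD (-0.23) lost its call in 7 of the 8 such fits (-0.31 to -0.15), SLC2A3 (-2.62) in 6, with values from -4.47 to -0.77, and PDK2 (0.46) in 3, with values from 0.25 to 0.66. PDHA1 (-0.39) and PDHB (0.55) each lost it in 1, without panobinostat replicate 1 and replicate 2.

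The interaction asks whether the effect of both drugs differs from the sum of the single-drug effects on the log2 scale. It was above the sum for 13 of the 34 genes and below it for 2, beside 10.2% and 9.04% over all genes. The median interaction was 0.18, against 0.08 over all genes. The clearest by adjusted p were TKT (0.96 ± 0.08, limma adjusted p = 6.52e-05), GAPDH (0.87 ± 0.10, 0.000441), SLC16A1 (1.21 ± 0.16, 0.000761) and ENO1 (0.89 ± 0.12, 0.00117). PFKFB2 (-1.40 ± 0.14, 0.000155) and PDK2 (-1.18 ± 0.19, 0.00261) lay below the sum. LDHA lay on it: the single-drug changes summed to -2.04, both drugs gave -1.97, and the interaction was 0.07 ± 0.11 (0.685). With any 1 library left out, 8 of the 15 interactions passed (SLC16A1, PFKFB2, ENO1, GAPDH, LDHB, PDK2, TPI1 and TKT). HK1, HK2, GPI, ALDOA, PGK1, PGAM1 and ENO3 lost the call in at least 3 such fits, with adjusted p up to 0.15.

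**Figure D5:**
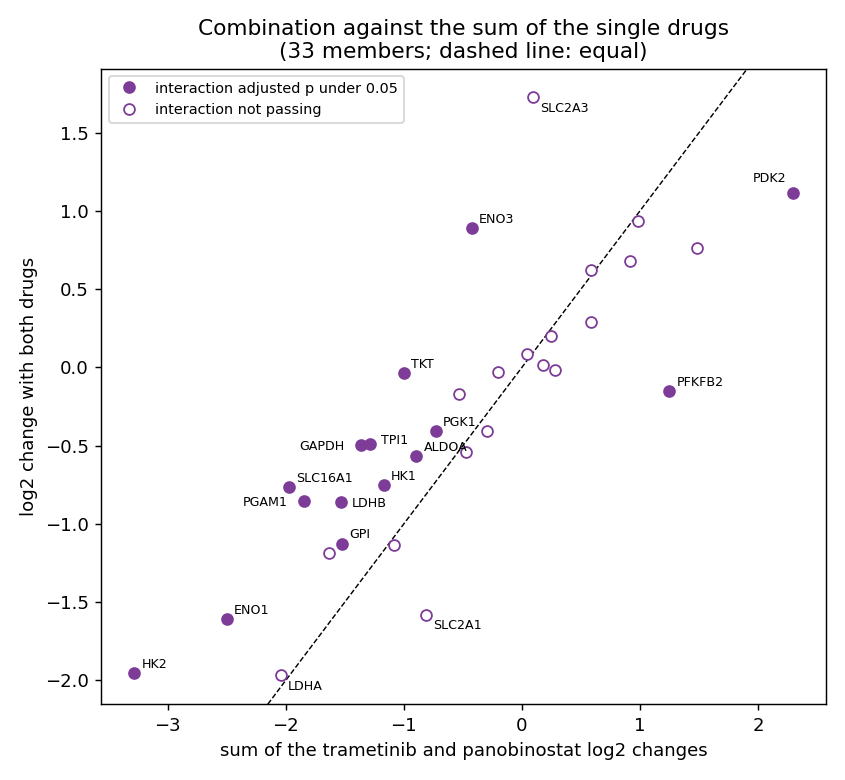
Log2 change with both drugs (y axis) against the sum of the changes with trametinib and with panobinostat (x axis) for 33 tested genes, PDK4 left out because its values with trametinib are listed at 0. Filled points passed the interaction test; 13 lie above the dashed line of equality and 2, PFKFB2 and PDK2, below it, and LDHA lies on it.

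Genes of the same and neighbouring pathways were counted from 10 lists; of their 187 entries the table held 166, and 143 passed the filter on low values. Over all tested genes, 23.7% were called higher and 27.4% lower with trametinib, and 15.0% and 15.6% with panobinostat. With both drugs the shares were 24.5% and 25.5%, and the counts of every list are to be read beside these. Of 12 other glycolysis genes, 2 rose and 3 fell with trametinib, 3 rose and 3 fell with panobinostat, and 3 rose and 4 fell with both. Pyruvate kinase, listed as PKM2, was at 10386 and 10745 in the vehicle libraries, 7015 and 7340.0 under trametinib, 12306 and 11953 under panobinostat, and 8956 and 8574 under both drugs. It lay below vehicle with trametinib and above it with panobinostat, and changed by -0.56 ± 0.05 and 0.20 ± 0.05 (limma adjusted p = 1.81e-05 and 0.0165).

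Of 13 other lactate, monocarboxylate and glucose transport genes, 5 rose and 4 fell with trametinib, 2 rose and 1 fell with panobinostat, and 5 rose and 2 fell with both. SLC16A6, of the monocarboxylate transporter family, changed by -2.80 ± 0.20 with trametinib and by -4.54 ± 0.20 with both, whereas its relative SLC16A4 changed by 2.24 ± 0.18 and 2.18 ± 0.18. BSG, the chaperone of MCT1 at the membrane, rose by 0.31 ± 0.07 with both drugs (limma adjusted p = 0.00373).

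Of 10 other genes of pyruvate dehydrogenase and mitochondrial pyruvate, 1 rose and 2 fell with trametinib, 1 rose and 0 fell with panobinostat, and 1 rose and 3 fell with both. Of 9 other pentose phosphate genes, 3 rose and 6 fell with trametinib, 2 rose and 2 fell with panobinostat, and 3 rose and 5 fell with both.

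The glycogen list held 16 genes, relatives of PGM1 such as PGM2, PGM2L1 and PGM5 included. In this list, 8 rose and 1 fell with trametinib, 6 rose and 1 fell with panobinostat, and 5 rose and 2 fell with both. PGM5 and PGM2L1 were among the rises with each treatment, and PGM2 among the falls with both drugs. PYGB, a glycogen phosphorylase, rose by 0.76 ± 0.07 with trametinib (limma adjusted p = 1.84e-05). The list for the tricarboxylic acid cycle held 21 genes, cytosolic enzymes such as IDH1 included. In this list, 4 rose and 11 fell with trametinib, 1 rose and 9 fell with panobinostat, and 1 rose and 12 fell with both. IDH1, the cytosolic isocitrate dehydrogenase, changed by -0.72, -0.46 and -1.26, each ± 0.07.

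Of 24 HIF targets outside glycolysis, 8 rose and 10 fell with trametinib, 7 rose and 2 fell with panobinostat, and 11 rose and 7 fell with both. DDIT4, an inhibitor of mTORC1, rose by 2.24 ± 0.17, 2.38 ± 0.17 and 4.33 ± 0.17, and BNIP3L, a mitophagy receptor, by 1.67 ± 0.10 with trametinib. STC2, a secreted glycoprotein of the same list, fell by 2.65 on the log2 scale with trametinib, and the median of the list was -0.06. Of 24 regulators of glycolytic genes, 10 rose and 6 fell with trametinib, 4 rose and 5 fell with panobinostat, and 11 rose and 9 fell with both. MYC, a transcription factor known to drive glycolytic genes, was at 4021 and 4133 in the vehicle libraries, 53.2 and 32.1 under trametinib, 5921 and 6139 under panobinostat, and 44.5 and 89.8 under both drugs. It was low in all 4 libraries with trametinib, and its part in the changes of the glycolytic genes was not tested.

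Of 7 genes of the serine and one-carbon branch, which leaves glycolysis at 3-phosphoglycerate, 2 rose and 4 fell with trametinib, 0 rose and 4 fell with panobinostat, and 0 rose and 5 fell with both. MTHFD2, its mitochondrial dehydrogenase, changed by -2.66 ± 0.24 with trametinib (limma adjusted p = 1.84e-05). Of 7 genes of the hexosamine branch, which feeds protein glycosylation, 2 rose and 2 fell with trametinib, 2 rose and 1 fell with panobinostat, and 1 rose and 2 fell with both. The median log2 change with trametinib was -1.36 in the serine branch, -0.33 in the tricarboxylic acid cycle list and 0.46 in the glycogen list. It was -0.65 for the 34 genes.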

How the data were processed

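Total RNA of 92.1 cells was sequenced after library preparation with a NuGEN Ovation kit, per the labels' protocols. Per the submitters' processing notes, TopHat2 2.0.13, Cufflinks 2.2.1 and DESeq2 were used, and genome build hs37d5 is named for 4 of the 8 samples. Annotation, counter and strand use are not given in the sources used here. In the expression table, the authors deposited 1 signal value per gene and library, a normalised count. In 5 libraries every value was a whole number of reads times a constant of that library (100% of values within 1e-06), and for the other 3 whole reads are not claimed.

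All 8 libraries entered 1 limma 3.58.1 fit (R 4.3.3) of log2(value + 1) with an intensity trend (residual degrees of freedom 4, prior 5.32). Testing covered the 13320 genes with a mean of at least 10, with Benjamini-Hochberg adjustment over all of them and a threshold of 0.05. Scripts were tested on simulated data. edgeR 4.0.16 and DESeq2 1.42.0 were run as alternatives for combination against vehicle only, on the whole reads of those 4 libraries, a choice made after seeing the data. The count tests planned for all 8 libraries were not run, since whole reads were held for 5 libraries only.

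Values in all libraries are given for genes that passed with at least 2-fold change against vehicle or in the interaction, and for those between GPI and LDHA. Of the 10 neighbouring lists, at most the 6 genes with the smallest adjusted p per list could be named. The 35 genes and the lists were chosen with earlier results of these data known. The interaction subtracts the panobinostat effect in vehicle from that under trametinib. Exon lengths are from GENCODE 29, as the union of the exons of a gene's basic protein-coding transcripts.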

Additional observations from a re-analysis of the deposited data

Results flagged for a closer look

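For 15 of the 34 tested genes, the change with both drugs differed from the sum of the single-drug changes by limma's interaction test, with adjusted p under 0.05. Above the sum were ENO3 (1.31) and HK2 (1.33), SLC16A1 (1.21), PGAM1 (0.99), TKT (0.96), ENO1 (0.89), GAPDH (0.87), TPI1 (0.80), LDHB (0.67), HK1 (0.42), GPI (0.40), ALDOA (0.33) and PGK1 (0.32), on the log2 scale. Below the sum were PFKFB2 (-1.40) and PDK2 (-1.18).

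HK2, GPI, ALDOA and ENO1 were called in the interaction although their values with both drugs were not called different from those with trametinib alone (0.57, -0.10, 0.09 and 0.22). With both drugs, TKT did not pass against vehicle (-0.04) and ENO3 was above it (0.89), while trametinib alone lowered both genes. HK1, HK2, GPI, ALDOA, PGK1, PGAM1 and ENO3 lost the interaction call when single libraries were left out.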

How the results depend on the processing

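Leaving out 1 library at a time, the members called higher ranged from 4 to 8 with trametinib (8 without trametinib replicate 2), 2 to 8 with panobinostat, 2 to 8 with both drugs, 6 to 15 for both drugs against trametinib, 0 to 2 for both drugs against panobinostat, and 6 to 15 in the interaction. Those called lower ranged from 4 to 15 with panobinostat and 2 to 4 in the interaction. Panobinostat calls fell without any vehicle or panobinostat library, and rose without either trametinib library. Calls over all tested genes moved in the same directions in these fits, as did the higher calls in the interaction, so these shifts are not particular to the members. Where a group was left with 1 library, that library was assumed to vary like the others. SLC2A3 with trametinib turned from -1.26, not passing, to 0.588 without trametinib replicate 2 and -3.111 without replicate 1. edgeR, added after seeing the data and fitted to the vehicle and combination reads only, called 7 genes higher and 19 lower with both drugs, and DESeq2 6 and 18, against 4 and 17 in limma. Over all genes edgeR called 4445 higher and 4625 lower. Another pseudocount (10), no filter, a minimum mean of 50 and values scaled to equal totals moved no member count by over 1.5 times and reversed no called member.

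The difference of replicate 1 from replicate 2 correlated between groups at -0.0235 to 0.0218 over all tested genes. Noise of low genes enters these correlations, so they do not decide whether libraries of the same number shared a culture or day. The replicate block left 17 genes lower with trametinib and 12 higher in the interaction. PDHA1 (0.29) against trametinib, PGD (-0.23) against panobinostat and ALDOA (0.33) in the interaction then did not pass, and SLC2A1 (-0.99) against trametinib did. Low genes are limited by depth, and SLC16A3 could not be tested.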

Other observations

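Among genes outside the list, SLC2A12, a glucose transporter of low level in vehicle (15.6 and 11.1), was at 46.1 and 78.4 under trametinib, 83.6 and 130.1 under panobinostat, and 275 and 154 under both drugs. PPARGC1A, a coactivator known for mitochondrial biogenesis, measured 194 and 184 in the vehicle libraries, 309.9 and 196 under trametinib, 547 and 567 under panobinostat, and 898 and 895 under both drugs. It rose by 1.55 ± 0.20 with panobinostat and by 2.24 ± 0.20 with both (limma adjusted p = 0.000438 and 1.4e-05). PGM5, a relative of PGM1, rose by 2.24 ± 0.21 with trametinib, from 59.6 and 61.0 to 316 and 262. H6PD, the hexose 6-phosphate dehydrogenase of the endoplasmic reticulum, rose by 1.19 ± 0.12 with trametinib.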
